A study of Mus musculus with 9 samples.

Results

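The genes for fibroblast growth factor (FGF) ligands and receptors were examined in mouse embryonic stem cells (mESC). Members were chosen by gene symbol, with earlier results of these data known. They comprised 6 ligands (*Fgf3*, *Fgf4*, *Fgf8*, *Fgf10*, *Fgf15* and *Fgf17*) and 4 receptors (*Fgfr1*, *Fgfr2*, *Fgfr3* and *Fgfr4*). These 10 genes were found among the 29069 genes of the expression table. Total RNA sequencing had been done on mESC of the D3 line, which had been adapted to growth without feeder cells and were used between passages 5 and 8. Each medium was applied for 24 h, with 3 samples per medium.

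Ground state medium (GS) was N2B27 with the MEK inhibitor PD0325901 at 1 µM, the GSK-3 inhibitor CHIR99021 at 3 µM and leukaemia inhibitory factor (LIF) at 20 ng per mL. Differentiation medium (DM) was DMEM with glucose, glutamine, 2-mercaptoethanol and 10% fetal bovine serum, and held neither the inhibitors nor LIF. The third medium (NO) was DM with the nitric oxide donor DETA/NO at 250 µM. DM and NO thus differed only in the donor, whereas both differed from GS in basal medium, serum, inhibitors and LIF together, and the parts of that change cannot be told apart. RNA came from 1 dish per sample, and the labels do not say whether the dishes were separate experiments, so that p-values measure the spread between these samples.

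FGFs are secreted proteins that bind FGF receptors, which are tyrosine kinases of the cell surface, together with heparan sulphate or, for the endocrine FGFs, with Klotho proteins. Activated receptors signal through Ras, Raf, MEK and ERK, and this pathway in turn raises transcription of its own inhibitors, such as Sprouty proteins and dual specificity phosphatases. In mESC, Fgf4 made by the cells themselves is known to drive ERK activity and to prepare the cells for lineage commitment, and the MEK inhibitor of GS acts below the receptors.

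*Fgf3*, *Fgf4* and *Fgf15* lie close together and on the same strand of chromosome 7 (GRCm38, GENCODE M21). *Fgf3* runs from 144838083 to 144844436, *Fgf4* from 144847367 to 144865243 and *Fgf15* from 144896531 to 144900953. Among the other members with results, *Fgf10* lies on chromosome 13 from 118669791 to 118792115 and *Fgfr4* on chromosome 13 from 55152640 to 55168759, both on the plus strand. *Fgf17* lies on chromosome 14 from 70636203 to 70642268 on the minus strand, and *Fgfr1* on chromosome 8 from 25513654 to 25575718 on the plus strand. Promoter sequences were available for 6 of the 10 members in RefSeq (GRCm38.p6). The 250 bases before the RefSeq start site are shown for 4 of them, namely for the most abundant ligand, for both ligands that passed the test as lower in NO than in GS and for the receptor that passed it as higher. Capitals mark matches to the motifs searched. These were the Zeb E-box CACCTG, the ETS site CCGGAA, the TCF/LEF site ATCAAAG and the octamer ATGCAAAT, each on both strands, and no match overlapped another. Positions are chr7:144861136-144861385 for *Fgf4*, chr7:144838362-144838611 for *Fgf3*, chr13:118714449-118714698 for *Fgf10* and chr13:55152568-55152817 for *Fgfr4*, all on the plus strand. The RefSeq start sites of all 4 genes lie inside the GENCODE spans given above, each of which covers all transcripts of its gene. The windows of *Fgf3*, *Fgf4* and *Fgf10* lie wholly inside these spans. The *Fgfr4* window begins before the GENCODE start at 55152640 and ends inside the span, and its capitals lie inside the span.
Fgf4 promoter: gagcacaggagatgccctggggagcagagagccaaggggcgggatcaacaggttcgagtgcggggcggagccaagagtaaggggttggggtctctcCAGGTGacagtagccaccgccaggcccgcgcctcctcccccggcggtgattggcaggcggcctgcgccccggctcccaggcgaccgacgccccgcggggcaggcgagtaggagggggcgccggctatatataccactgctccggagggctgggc
Fgf3 promoter: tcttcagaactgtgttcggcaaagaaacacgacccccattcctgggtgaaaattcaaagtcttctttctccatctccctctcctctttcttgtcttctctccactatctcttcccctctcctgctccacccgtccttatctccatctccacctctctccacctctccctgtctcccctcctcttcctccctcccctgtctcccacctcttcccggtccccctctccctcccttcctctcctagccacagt
Fgf10 promoter: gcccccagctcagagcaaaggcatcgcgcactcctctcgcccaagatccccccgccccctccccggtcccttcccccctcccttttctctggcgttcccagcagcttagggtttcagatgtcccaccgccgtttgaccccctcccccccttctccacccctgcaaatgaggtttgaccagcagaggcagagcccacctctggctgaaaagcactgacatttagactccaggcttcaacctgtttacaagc
Fgfr4 promoter: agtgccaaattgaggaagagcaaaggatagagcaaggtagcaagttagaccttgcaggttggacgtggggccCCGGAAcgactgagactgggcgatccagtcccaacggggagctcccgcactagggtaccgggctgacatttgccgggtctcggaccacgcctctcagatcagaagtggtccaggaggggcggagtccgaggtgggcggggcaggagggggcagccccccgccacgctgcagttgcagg
The *Fgf4* window held 1 Zeb E-box, which began 154 bases before the start site and lay on the minus strand. The *Fgfr4* window held 1 ETS site, which began 178 bases before the start site and lay on the plus strand. The *Fgf3* and *Fgf10* windows held none of the 4 motifs. Among 32851 promoter windows of the same length, 17.2% held the Zeb E-box, 12% the ETS site, 3.21% the TCF/LEF site and 1.6% the octamer.

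Values are normalised counts per gene, that is, read counts scaled by the authors with a factor for each sample. They summed to between 18290445 and 20508679 per sample, and the gaps between low values gave estimates of 14305335 to 27061091 reads per sample. Differences between media were tested on the log2(value + 1) scale with limma, and a gene was called when it changed by at least 2-fold with a p-value under 0.05 after Benjamini-Hochberg adjustment. All 9 samples entered a single fit, in which the media share the estimate of the spread of each gene. The SE of a gene is therefore the same in every comparison, also where the NO samples varied more than those of GS or DM. Markers of pluripotent stem cells were present in all 9 samples, with summed normalised counts of 106421 to 109433 in GS, 85050 to 92684 in DM and 56644 to 90790 in NO. Of the 10 tested, *Tfcp2l1* and *Dppa3* were called lower in both DM and NO than in GS, and *Utf1* was called higher in DM than in either other medium. *Nanog* in DM vs GS (log2 fold change -0.795, adjusted p = 0.0311) and *Pou5f1* in NO vs DM (-0.95, adjusted p = 0.0349) stayed under the 2-fold minimum. Fibroblast or feeder markers summed to 318 to 496 in GS, 412 to 447 in DM and 381 to 406 in NO, but single markers moved. Of the 5 tested, *Thy1* was called higher in DM than in GS (log2 fold change 1.70, adjusted p = 0.000303) and in NO than in GS (1.47, adjusted p = 0.000676), with 59, 59 and 60 in GS, 211, 208 and 168 in DM and 158, 176 and 166 in NO. *Col1a1* was called higher in NO than in GS (1.49, adjusted p = 0.0207) and than in DM (1.56, adjusted p = 0.0240), with 21, 13 and 20 in GS, 13, 18 and 20 in DM and 39, 88 and 39 in NO. *Pdgfrb* stayed under the 2-fold minimum in NO vs GS (-0.97, adjusted p = 0.0169).

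Of the 10 members, 9 exceeded a mean of 5 over all samples and were tested. In DM compared with GS, 2 ligands were called higher (*Fgf15* and *Fgf17*) and 1 lower (*Fgf10*), where 4.2% of all 18156 tested genes were called, 2.94% higher and 1.27% lower. In NO compared with GS, the receptor *Fgfr4* was called higher and the ligands *Fgf3* and *Fgf10* lower, where 11.7% of all genes were called, 10.1% higher and 1.64% lower. In NO compared with DM, *Fgfr4* was called higher and *Fgf15* lower, where 8.55% of all genes were called, 6.78% higher and 1.77% lower. DM vs GS and NO vs GS share the GS samples, and NO vs DM shares its DM samples with the former and its NO samples with the latter. The comparisons are therefore not independent. The median log2 fold change of the 9 tested members in the same order of comparisons was 0.13, 0.06 and -0.09, beside medians over all genes of -0.00068, -0.02 and 0.0010.

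**Figure D1:**
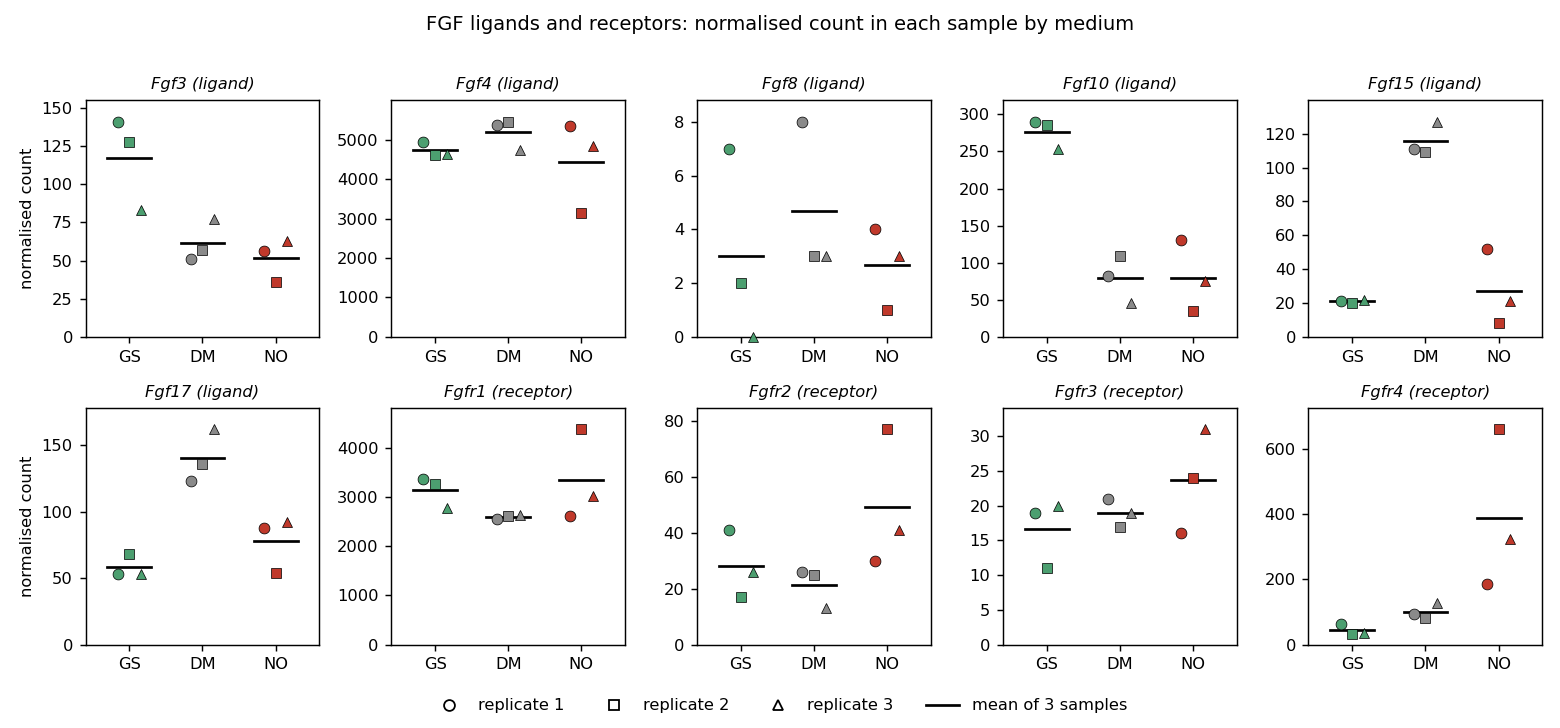
Normalised counts (y axis, from 0 in each panel) of the 6 ligands and 4 receptors in the 3 samples of each medium (x axis), with a symbol per replicate number and a line at the mean. The GS samples lie above all DM and NO samples for *Fgf10*, the DM samples lie above all others for *Fgf15* and *Fgf17*, and the NO samples lie above all others for *Fgfr4*.

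*Fgf4* was the most abundant ligand in every sample and was not called in any comparison. Normalised counts of *Fgf4* were 4951, 4605 and 4637 in GS, 5361, 5453 and 4741 in DM and 5340, 3146 and 4846 in NO. The ranges of the 3 media overlapped, and NO replicate 2 was the lowest of all 9 samples. The log2 fold change was 0.13 (95% interval -0.27 to 0.53, adjusted p = 0.749) in DM vs GS, -0.13 (-0.52 to 0.27, adjusted p = 0.663) in NO vs GS and -0.26 (-0.65 to 0.14, adjusted p = 0.362) in NO vs DM. Each interval lay within a 2-fold change in either direction.

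*Fgf15* is the mouse counterpart of human FGF19, an endocrine ligand known from the gut, where it limits bile acid synthesis in the liver. Its normalised counts were 21, 20 and 22 in GS, 111, 109 and 127 in DM and 52, 8 and 21 in NO. The DM samples lay above all others, whereas the NO samples lay above, below and within the narrow GS range. *Fgf15* was 5.29-fold higher in DM than in GS (log2 fold change 2.40 ± 0.50 SE, adjusted p = 0.0141) and fell by 2.41 on the log2 scale from DM to NO (SE 0.50, adjusted p = 0.0113). Between NO and GS the log2 fold change was -0.0060 (95% interval -1.10 to 1.08, adjusted p = 0.995). The call in DM vs GS was lost without GS replicate 2 or 3 or without any 1 of the 3 DM samples, where the log2 fold change stayed between 2.34 and 2.45 and the adjusted p-value reached at most 0.0569. In a limma fit of only the GS and DM samples, without the scattered NO samples, it remained (log2 fold change 2.40, adjusted p = 0.000302). The call in NO vs DM remained with each sample left out in turn, and its log2 fold change was -1.77 without NO replicate 2 and -3.05 without NO replicate 1. Exons of *Fgf15* overlap those of the opposite-strand transcript *Gm26793* by 761 bases, and use of the strand in counting was not stated. *Gm26793* had normalised counts of 1, 4 and 7 in GS, 6, 15 and 35 in DM and 4, 5 and 5 in NO. Its log2 fold changes of 1.89 in DM vs GS (adjusted p = 0.134) and -1.495 in NO vs DM (adjusted p = 0.154) had the signs of those of *Fgf15* but were not called, and its part in the *Fgf15* values was not tested.

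*Fgf17*, a ligand of the Fgf8 subfamily known from midbrain and cerebellum development, was also highest in DM. Samples had normalised counts of 53, 68 and 53 in GS, 123, 136 and 162 in DM and 88, 54 and 92 in NO. No DM sample overlapped with GS or NO, and NO replicate 2 lay within the GS range. *Fgf17* was 2.40-fold higher in DM than in GS (log2 fold change 1.26 ± 0.26 SE, adjusted p = 0.0124). In NO vs DM it was 0.87 lower on the log2 scale (log2 fold change -0.87 ± 0.26 SE, adjusted p = 0.0436), which was under the 2-fold minimum, and in NO vs GS the log2 fold change was 0.39 (adjusted p = 0.301). The call in DM vs GS was lost without GS replicate 1, GS replicate 3 or DM replicate 3, with log2 fold changes of 1.20, 1.20 and 1.15 and adjusted p-values of 0.0509, 0.0591 and 0.0544. It was also lost after quantile normalisation (log2 fold change 1.12, adjusted p = 0.0558), which brought *Fgf17* past both thresholds in NO vs DM (log2 fold change -1.18, adjusted p = 0.0286). With the replicate number as a block, the adjusted p-value in NO vs DM was 0.0642. A limma fit of only the GS and DM samples kept the call in DM vs GS (adjusted p = 0.0056).

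*Fgf10*, a ligand known for limb and lung bud outgrowth, was highest in GS. In normalised counts, it was at 290, 285 and 253 in GS, 82, 109 and 46 in DM and 130, 35 and 75 in NO. All 6 samples without inhibitors lay below the GS range, and DM and NO overlapped. *Fgf10* fell by 1.87 on the log2 scale from GS to DM (SE 0.42, adjusted p = 0.0207) and by 1.96 from GS to NO (SE 0.42, adjusted p = 0.00812), and the log2 fold change in NO vs DM was -0.09 (95% interval -1.01 to 0.83, adjusted p = 0.912). The call in NO vs GS remained with each sample left out in turn. The call in DM vs GS was lost without GS replicate 1, 2 or 3 or DM replicate 1 or 3, where the log2 fold change lay between -1.94 and -1.53 and the adjusted p-value reached at most 0.0835, and it was lost without the mean-variance trend (adjusted p = 0.0601). It remained in a limma fit of only the GS and DM samples (adjusted p = 0.00391). An opposite-strand transcript overlaps exons of *Fgf10* by 123 bases.

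*Fgf3*, which is known for its role in the inner ear and lies next to *Fgf4*, was highest in GS as well. The samples were at normalised counts of 141, 128 and 83 in GS, 51, 57 and 77 in DM and 56, 36 and 63 in NO. GS replicate 3 was the lowest of its medium but still lay above all DM and NO samples. *Fgf3* was 2.25-fold lower in NO than in GS (log2 fold change -1.17 ± 0.30 SE, adjusted p = 0.0183). This call was lost without GS replicate 1, GS replicate 2 or NO replicate 2, with log2 fold changes of -1.02, -1.09 and -0.93 and adjusted p-values of 0.0760, 0.0729 and 0.0528. In DM vs GS the log2 fold change was -0.90 (95% interval -1.56 to -0.25, adjusted p = 0.105), and in NO vs DM it was -0.27 (-0.92 to 0.39, adjusted p = 0.582).

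*Fgf8*, a ligand known from gastrulation, was close to the detection limit. Its normalised counts were 7, 2 and 0 in GS, 8, 3 and 3 in DM and 4, 1 and 3 in NO, which corresponds to at most 9 reads in any sample. In these samples 3 reads were worth 2.10 to 3.97 normalised counts, depending on the sample. *Fgf8* did not reach the minimum mean of 5 for testing, and no fold change is given.

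Other genes of the *Fgf4* neighbourhood were compared with the 3 clustered ligands. Within 500 kb of *Fgf4*, 12 further genes were tested. With limma, none was called in DM vs GS or NO vs DM, and 2 and 4 of them had an unadjusted p-value under 0.05. *Ccnd1*, the cyclin D1 gene that lies 64.7 kb away, had log2 fold changes of -0.02 (adjusted p = 0.958) and -0.56 (adjusted p = 0.0320) in these comparisons. Its log2 fold change in NO vs GS was -0.59 (adjusted p = 0.0200), and its NO samples lay below all GS and DM samples. Each of these changes was under the 2-fold minimum. In NO vs GS 1 was called, namely *Shank2* at 422.9 kb (log2 fold change 2.97, adjusted p = 0.00376), with normalised counts of 8, 5 and 4 in GS, 15, 14 and 23 in DM and 25, 128 and 38 in NO. Its log2 fold changes in DM vs GS and NO vs DM were 1.47 (adjusted p = 0.151) and 1.502 (adjusted p = 0.0854).

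Per kilobase of exon, *Fgf4* made up 89.7% to 91.8% of the summed normalised counts of the 6 ligands in GS, 89.0% to 91.6% in DM and 93.1% to 94.4% in NO. The order of the remaining ligands changed with the medium. In GS, mean normalised counts per kb were 59.99 ± 4.36 for *Fgf10*, 50.4 ± 13.1 for *Fgf3*, 34.3 ± 5.13 for *Fgf17*, 6.87 ± 0.327 for *Fgf15* and 2.22 ± 2.67 for *Fgf8* (SD, n = 3). *Fgf10* and *Fgf3*, and *Fgf3* and *Fgf17*, had overlapping ranges there. In DM, the order was *Fgf17* (83.1 ± 11.8), *Fgf15* (37.8 ± 3.23), *Fgf3* (26.5 ± 5.85), *Fgf10* (17.2 ± 6.87) and *Fgf8* (3.46 ± 2.14), and only *Fgf3* and *Fgf10* overlapped. In NO, *Fgf17* (46.2 ± 12.4) was followed by *Fgf3* (22.2 ± 6.02), *Fgf10* (17.4 ± 10.4), *Fgf15* (8.83 ± 7.39) and *Fgf8* (1.98 ± 1.13), where *Fgf3*, *Fgf10* and *Fgf15* overlapped each other and *Fgf15* also overlapped *Fgf8*.

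**Figure D2:**
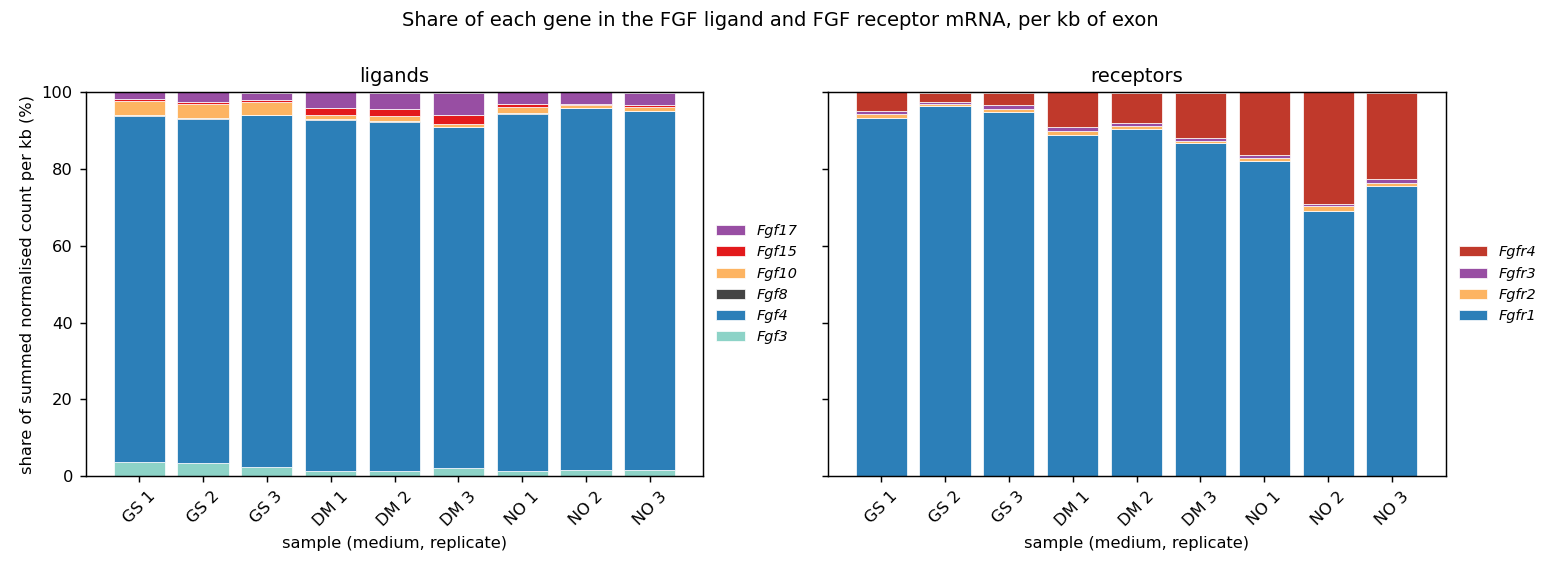
Share (y axis, %) of each ligand in the summed normalised counts per kb of exon of the 6 ligands, and of each receptor in that of the 4 receptors, in each of the 9 samples (x axis). *Fgf4* fills 89.0% to 94.4% of every ligand bar, while *Fgfr4* takes 2.56% to 4.94% of the receptor bar in GS, 7.83% to 11.8% in DM and 16.3% to 29.1% in NO.

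Among the receptors, *Fgfr1*, the main FGF receptor of mESC and of the early epiblast, was the most abundant in every sample. Its normalised counts were 3371, 3253 and 2768 in GS, 2546, 2612 and 2623 in DM and 2615, 4370 and 3024 in NO. The DM samples lay just below the GS samples, and NO replicate 2 was the highest of all 9. The log2 fold change was -0.27 (95% interval -0.65 to 0.12, adjusted p = 0.446) in DM vs GS, 0.06 (-0.32 to 0.45, adjusted p = 0.838) in NO vs GS and 0.33 (-0.06 to 0.71, adjusted p = 0.227) in NO vs DM. As with *Fgf4*, each interval lay within a 2-fold change. An opposite-strand transcript overlaps exons of *Fgfr1* by 164 bases.

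*Fgfr4*, the receptor that carries endocrine Fgf15 signals in the liver together with the coreceptor Klb, was lowest in GS and highest in NO. Its normalised counts were 64, 31 and 34 in GS, 94, 81 and 128 in DM and 186, 659 and 322 in NO. The ranges of the 3 media did not overlap. *Fgfr4* was 8.18-fold higher in NO than in GS (log2 fold change 3.03 ± 0.42 SE, adjusted p = 0.00106) and 3.41-fold higher in NO than in DM (log2 fold change 1.77 ± 0.42 SE, adjusted p = 0.0194). In DM vs GS the log2 fold change was 1.26 (95% interval 0.35 to 2.18, adjusted p = 0.105). Leaving out 1 sample at a time kept the NO vs GS call in all 9 fits, with log2 fold changes from 2.56 to 3.47. The NO vs DM call was lost without DM replicate 1, DM replicate 2 or NO replicate 3 (log2 fold changes 1.73, 1.63 and 1.81, adjusted p = 0.0607, 0.0682 and 0.0544) and without the mean-variance trend (adjusted p = 0.0541). In DM vs GS *Fgfr4* was called when only those 6 samples were fitted (adjusted p = 0.0362) and without NO replicate 1 (adjusted p = 0.0429) or NO replicate 2 (adjusted p = 0.0255).

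*Fgfr2* and *Fgfr3* were low throughout. *Fgfr2*, a receptor known from trophoblast and primitive endoderm, had normalised counts of 41, 17 and 26 in GS, 26, 25 and 13 in DM and 30, 77 and 41 in NO. NO replicate 2 stood above all other samples, and the NO samples lay above the DM samples but overlapped with GS. Its log2 fold change was 1.12 (95% interval 0.15 to 2.09, adjusted p = 0.109) in NO vs DM, 0.77 (adjusted p = 0.240) in NO vs GS and -0.35 (adjusted p = 0.721) in DM vs GS, and it was called in NO vs DM only without NO replicate 1 (log2 fold change 1.42, adjusted p = 0.0474). Its exons overlap *Ctbp2* by 314 bases on the same strand, and reads that overlapped several genes were not counted. *Fgfr3*, known as a brake on bone growth, had normalised counts of 19, 11 and 20 in GS, 21, 17 and 19 in DM and 16, 24 and 31 in NO, and all 3 ranges overlapped. Its log2 fold changes were 0.22 (95% interval -0.60 to 1.03), 0.48 (-0.34 to 1.29) and 0.26 (-0.55 to 1.07) in DM vs GS, NO vs GS and NO vs DM, with adjusted p-values of 0.803, 0.391 and 0.674, and 998 bases of its exons overlap the opposite-strand gene *G630022F23Rik*.

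Per kb of exon, *Fgfr1* made up 93.3% to 96.5% of the summed receptor counts in GS, 86.9% to 90.5% in DM and 69.2% to 82.1% in NO, so that the 3 ranges were separate. The share of *Fgfr4* was 4.94%, 2.56% and 3.25% in the GS samples, 9.16%, 7.83% and 11.8% in the DM samples and 16.3%, 29.1% and 22.4% in the NO samples. *Fgfr2* and *Fgfr3* each stayed at or below 1.17% in every sample. In mean normalised counts per kb, *Fgfr1* was at 317 ± 32.4 in GS, 262.6 ± 4.22 in DM and 337.9 ± 93.0 in NO, and *Fgfr4* at 12.1 ± 5.15, 28.5 ± 6.85 and 109.8 ± 68.8 (SD, n = 3). *Fgfr2* (2.71 ± 1.17, 2.07 ± 0.70 and 4.78 ± 2.38) and *Fgfr3* (2.33 ± 0.689, 2.65 ± 0.279 and 3.31 ± 1.05) overlapped in every medium. In these bulk samples, a change in the number of cells that express a gene and a change in its RNA per cell cannot be told apart.

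**Figure D3:**
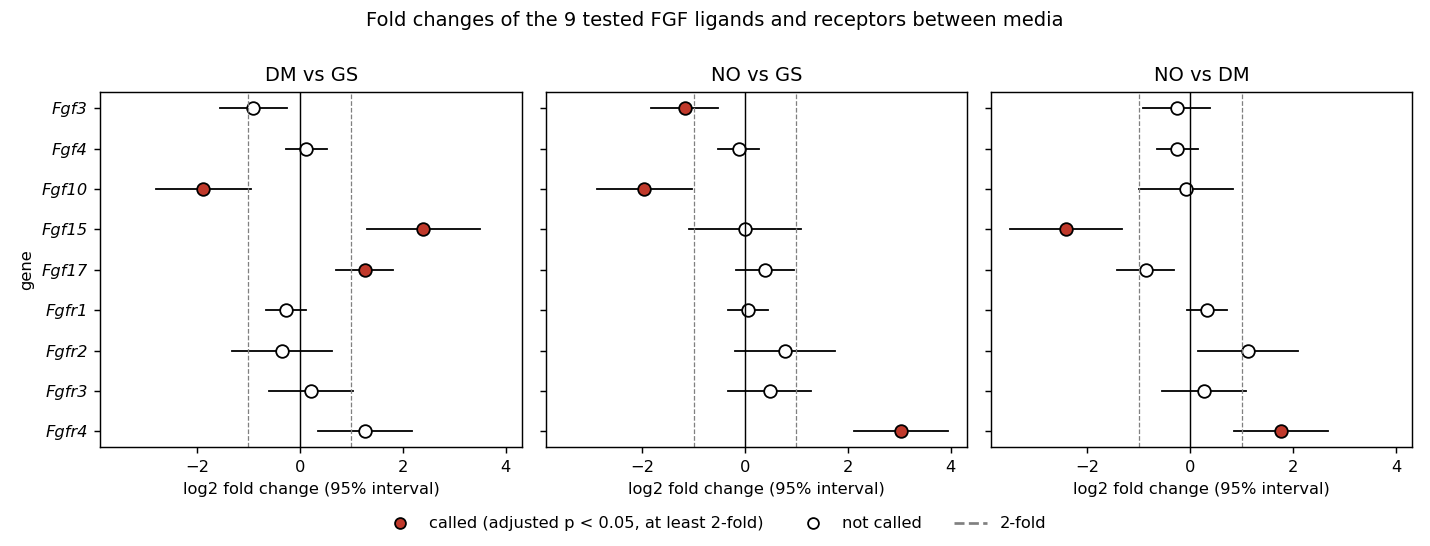
Log2 fold change (x axis) with its 95% interval for the 9 tested members (y axis) in the 3 comparisons, from limma on log2(normalised count + 1), with 3 samples per medium. Filled circles are called genes, dashed lines mark a 2-fold change, and the *Fgf4* and *Fgfr1* intervals stay between the dashed lines in all 3 panels.

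NO replicate 2 stood at one end of the NO samples for most members. It was the lowest of the 3 for all 5 tested ligands and the highest for *Fgfr1*, *Fgfr2* and *Fgfr4*, hence at an end for 8 of the 9 tested members, compared with 79.0% of all tested genes. In the same sample the pluripotent markers had their lowest sum (56644), although *Sox2* was at 2566, 3122 and 2749 in NO. The primitive endoderm and trophoblast markers had their highest sums there (737 and 1035). *Krt7* made up 484 of the trophoblast sum in that sample, with *Cdx2* at 14 and *Eomes* at 91. Primitive endoderm markers summed to 155 to 212 in GS, 122 to 203 in DM and 236 to 737 in NO, and 1 of the 6 tested, *Gata6*, was called higher in NO than in GS and than in DM, with 20, 234 and 90 in NO. Trophoblast markers summed to 450 to 484 in GS, 317 to 411 in DM and 316 to 1035 in NO, and of the 7 tested *Krt7* and *Hand1* were called higher and *Cdx2* and *Eomes* lower in NO vs GS. *Cdx2* and *Eomes* were also called lower in DM than in GS, and *Krt7*, *Hand1* and *Gata3* higher in NO than in DM. Primitive streak markers summed to 492 to 605 in GS, 205 to 251 in DM and 183 to 274 in NO. Of the 8 tested, *T*, *Eomes* and *Gsc* were called lower in both DM and NO than in GS, *Mesp1* and *Lhx1* higher in NO vs GS, and *T* and *Lhx1* higher in NO vs DM. Neuroectoderm markers summed to 1441 to 1852 in GS, 1474 to 1598 in DM and 1172 to 1520 in NO. Of the 5 tested, *Neurod1* was called higher in all 3 comparisons and *Pax6* lower in NO vs DM. None of these markers was at 0 in all samples, and their part in the changes of *Fgfr4* and the other members was not tested. Without NO replicate 2, limma gave *Fgfr4* a log2 fold change of 2.56 in NO vs GS (adjusted p = 0.000988) and 1.29 in NO vs DM (adjusted p = 0.0488), and *Fgf10* one of -1.47 in NO vs GS (adjusted p = 0.0147).

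The genes with the most similar pattern over the 9 samples were taken for each member with a mean above 50, by Pearson's r of log2(value + 1). These r values describe samples of 3 media that share their libraries, and no test was made. For *Fgfr4* they were *Adam8* (r = 0.998), *Ptpn7* (r = 0.996) and *Col6a4* (r = 0.995), and mean normalised counts of *Adam8* were 23.7 in GS, 66.3 in DM and 350.7 in NO. For *Fgf10* they were *Mtmr12* (r = 0.991), *Ttc39b* (r = 0.975) and *Camkk2* (r = 0.972), and for *Fgf3* they were *Tmem102* (r = 0.981), *Alpl* (r = 0.972) and *Lhpp* (r = 0.968). *Fgf15* was most similar to *Ankrd34a*, *Mpp3* and *Cep68* (each r = 0.988). *Fgf17* went with *Nphs1* (r = 0.989) and *Utf1* (r = 0.987), a transcription factor gene of pluripotent cells, and *Utf1* had mean normalised counts of 895.3 in GS, 4048 in DM and 1390 in NO. For *Fgfr1* the genes were *Cad*, *Prrc2b* and *Dnm2* (r = 0.981, 0.969 and 0.968), and for *Fgf4* they were *Tmem231*, *Mapk11* and *Mfsd9* (r = 0.950, 0.941 and 0.941).

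The remaining genes of the FGF pathway were followed in 4 lists, with 74 tested genes of 85 listed. In DM vs GS 6 were called higher and 2 lower, in NO vs GS 11 higher and 1 lower, and in NO vs DM 6 higher and 4 lower, which is 10.8%, 16.2% and 13.5% of those tested, beside 4.2%, 11.7% and 8.55% of all tested genes. The counts of each list below stand beside these same background shares. The lists were chosen with earlier results of these data known, which limits this comparison. Of the 16 other FGF ligands, 8 were tested. *Fgf5*, a ligand of the primed epiblast, was at 0 in all GS samples, at 22, 11 and 9 in DM and at 0, 6 and 8 in NO. It was called higher in DM than in GS (adjusted p = 0.0159), and its mean in DM was 3.53-fold the largest value that 3 reads had in a GS sample. In NO vs GS (log2 fold change 1.99, adjusted p = 0.104) and NO vs DM (-1.82, adjusted p = 0.150) *Fgf5* was not called. *Fgf1*, which can bind all 4 receptors, had normalised counts of 16, 7 and 15 in GS, 20, 18 and 19 in DM and 29, 230 and 97 in NO, and was called higher in NO than in GS (log2 fold change 2.76, adjusted p = 0.00889) and than in DM (2.14, adjusted p = 0.0376). *Fgf18*, which is known from bone and lung, was called higher in NO than in GS (log2 fold change 3.29, adjusted p = 0.00655), with 4, 6 and 1 in GS and 18, 111 and 30 in NO. The median log2 fold change of this list was 0.49, 0.68 and 0.24 in DM vs GS, NO vs GS and NO vs DM.

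Among 27 tested genes for coreceptors, binding proteins and heparan sulphate, 2 were called in DM vs GS, both lower. In NO vs GS 4 were called, all higher, and in NO vs DM 4 were called higher and 1 lower. *Fgfbp1* and *Fgfbp3* encode carriers that release FGFs from the matrix. *Fgfbp1* had normalised counts of 44, 79 and 61 in GS, 105, 83 and 95 in DM and 220, 1317 and 481 in NO, with log2 fold changes of 3.10 (adjusted p = 0.00181) in NO vs GS and 2.45 (adjusted p = 0.0101) in NO vs DM. *Fgfbp3* was called with log2 fold changes of 4.31 (adjusted p = 0.00117) and 3.37 (adjusted p = 0.00720). The syndecan gene *Sdc4*, a heparan sulphate proteoglycan of the cell surface, was higher in NO by 1.46 (vs GS) and 1.05 (vs DM) on the log2 scale, with adjusted p-values of 0.00209 and 0.0170. *Sdc1*, named after its values were seen, was the fourth gene called higher in NO vs GS (log2 fold change 1.03, adjusted p = 0.00268).

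*Flrt3* and *Flrt2*, membrane proteins that bind FGF receptors, fell by 1.42 and 1.29 on the log2 scale from GS to DM (adjusted p = 0.00598 and 0.0211), and *Flrt2* was higher in NO than in DM (log2 fold change 1.20, adjusted p = 0.0212). The glypican gene *Gpc3* fell by 1.16 from DM to NO (adjusted p = 0.0220). *Fgfrl1*, which encodes a receptor without a kinase domain, had normalised counts of 136, 73 and 103 in GS, 68, 88 and 113 in DM and 61, 56 and 54 in NO, with a log2 fold change of -0.81 in NO vs GS (adjusted p = 0.0576). *Klb*, the Fgf15 coreceptor, was at 36, 38 and 40 in GS, 48, 51 and 44 in DM and 55, 18 and 27 in NO, and was not called. The list medians were 0.08, 0.11 and 0.32 in DM vs GS, NO vs GS and NO vs DM.

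None of the 22 tested genes for adaptors and kinases between receptor and ERK was called by limma in any comparison, with 4, 7 and 6 at an unadjusted p-value under 0.05 in DM vs GS, NO vs GS and NO vs DM, and their median log2 fold changes were 0.04, -0.05 and -0.06. *Plcg1*, *Araf* and *Mapk3*, named after their values were seen, had adjusted p-values under 0.05 but stayed under the 2-fold minimum. In NO vs GS, *Plcg1* was at 0.77 (adjusted p = 0.0121) and *Araf* at 0.63 (adjusted p = 0.0152). *Mapk3* was at -0.79 in NO vs DM (adjusted p = 0.0434). Among the 17 tested feedback inhibitors and ERK targets, 5 were called higher in DM vs GS, 5 higher and 1 lower in NO vs GS, and 1 higher and 3 lower in NO vs DM, with medians of 0.81, 0.25 and -0.27. *Dusp6*, an ERK phosphatase, had normalised counts of 300, 507 and 389 in GS, 2090, 1755 and 2194 in DM and 1356, 1282 and 1615 in NO, with log2 fold changes of 2.36 (adjusted p = 7.2e-05) in DM vs GS and 1.85 (adjusted p = 0.000420) in NO vs GS. *Dusp4* rose by 2.98 and 2.72 on the same scale (adjusted p = 0.00109 and 0.00130), and *Dusp5*, named after its values were seen, was called in both as well (1.11 and 1.09). *Spry4*, a Sprouty inhibitor, was called higher in DM (log2 fold change 2.46, adjusted p = 0.000368) and in NO (1.23, adjusted p = 0.0101) than in GS, and lower in NO than in DM (-1.23, adjusted p = 0.0157).

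*Etv4*, an ETS factor gene that follows ERK activity, was called higher in DM than in GS (log2 fold change 1.48, adjusted p = 0.000714), and in NO vs GS it stayed under the 2-fold minimum (0.76, adjusted p = 0.0149), as it did in NO vs DM (-0.72, adjusted p = 0.0258). *Etv1*, of the same family, was called lower in NO than in DM (-1.27, adjusted p = 0.00801) and stayed just under the 2-fold minimum in DM vs GS (0.96, adjusted p = 0.0341). *Etv5* had log2 fold changes of 0.27, 0.0039 and -0.27 in DM vs GS, NO vs GS and NO vs DM, with adjusted p-values of 0.359, 0.990 and 0.257. *Fos*, an immediate early gene, was called higher in NO than in GS (2.72, adjusted p = 0.00175) and than in DM (1.96, adjusted p = 0.0142), and *Ier3* lower (-1.04, adjusted p = 0.0385, and -1.76, adjusted p = 0.00650). Of the 11 pathway genes called higher in NO vs GS, NO replicate 2 was the highest NO sample for 9 and the lowest for 2. Over all tested genes it was the highest for 41.8% and the lowest for 37.1%. The 11 genes were selected as higher in NO, and the share among all genes called higher was not computed.

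**Figure D4:**
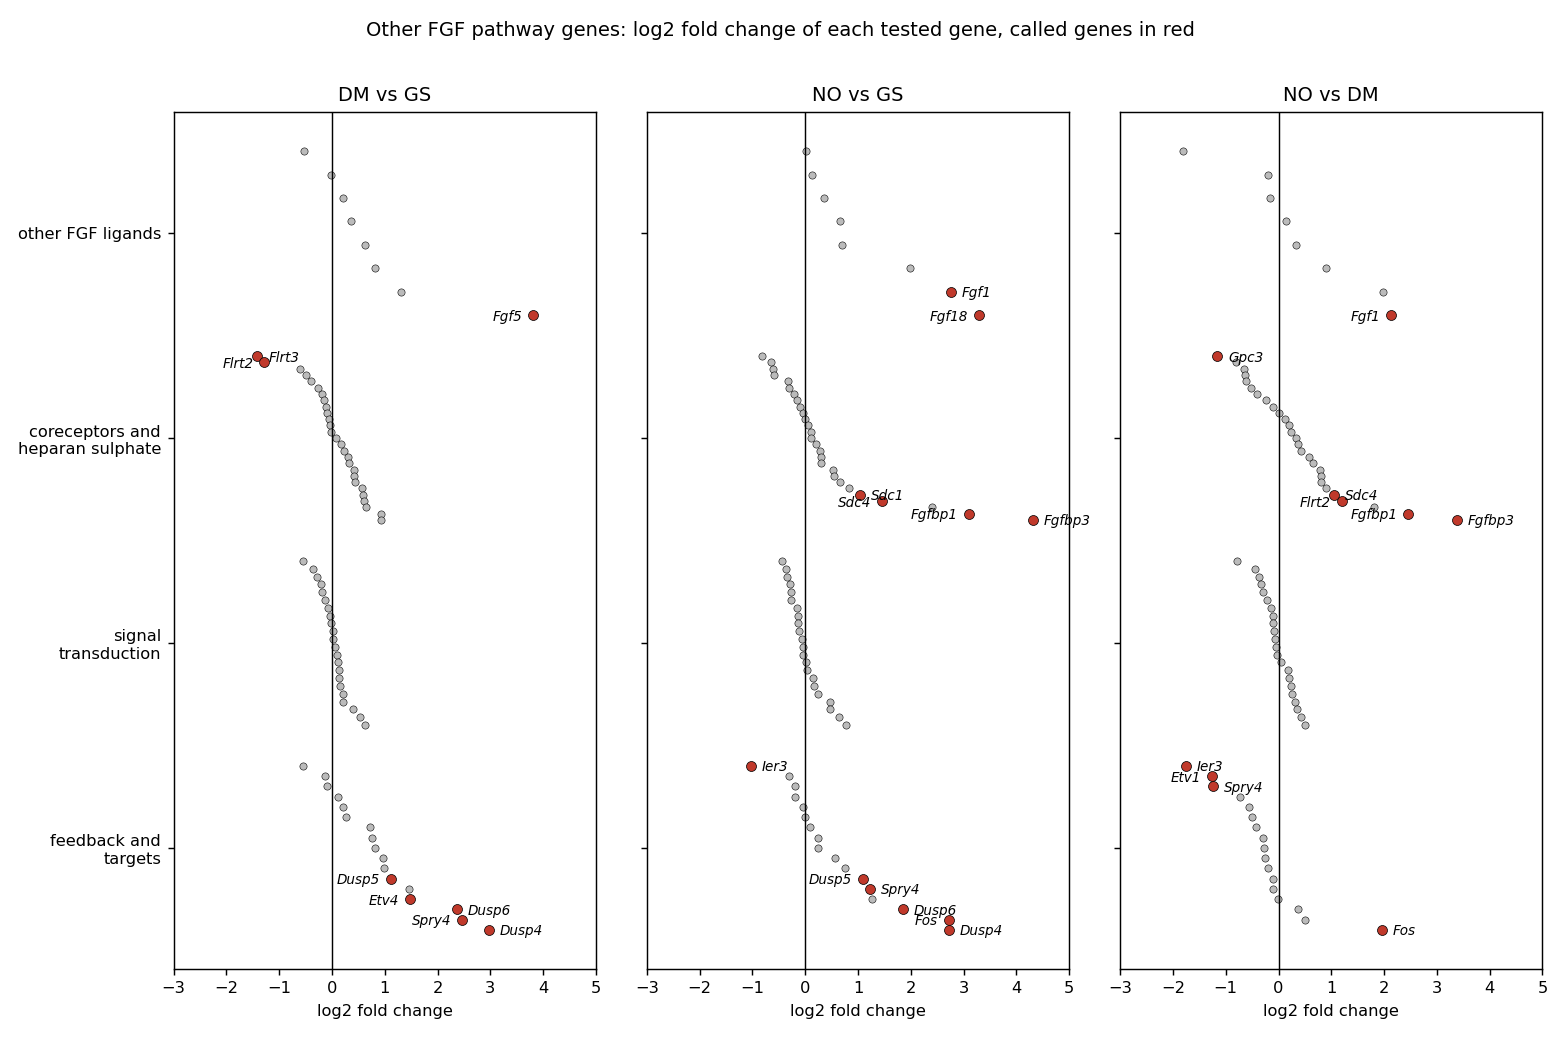
Log2 fold change (x axis) of each of the 74 tested FGF pathway genes, sorted within its list (y axis), for DM vs GS, NO vs GS and NO vs DM, with called genes in red and named. The red points on the right are feedback genes and *Fgf5* in DM vs GS, and include *Fgf1*, *Fgf18*, *Fgfbp1* and *Fgfbp3* in NO vs GS, while no signal transduction gene is red in any panel.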

How the data were processed

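Total RNA of 9 mESC samples, 3 per medium, had been depleted of ribosomal RNA and sequenced on an Ion Torrent Proton instrument. Trimming by the authors used Reaper, alignment to mm10 (GRCm38) used STAR 2.4.0a, and reads were counted per gene over exons by featureCounts 1.4.5-p1, leaving out reads that overlapped several genes or aligned to several places. Use of the strand was not given in the sources used here. Per gene, the deposited table holds a score: counts that the authors normalised with DESeq2 size factors and rounded to whole numbers, and a count model was therefore not used. Medium and replicate number were taken from the labels, and the columns of the table were matched to samples by title. Identifiers of 28539 of the 29069 genes were found in GENCODE M21, which gave positions and exon lengths. Levels of different genes were compared per kb of merged exons.

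Genes with a mean above 5 over the 9 samples (18156) were tested with limma 3.58.1 in R 4.3.3, on log2(value + 1), with all samples in 1 fit, empirical Bayes moderation and a mean-variance trend, two-sided, with Benjamini-Hochberg adjustment over all tested genes. Called genes changed by at least 1 on the log2 scale, in either direction, and had an adjusted p-value under 0.05. The script was tested on simulated data with known changes. The simulation gave every gene and medium the same dispersion, so that it does not cover the unequal spread of the media seen here. Alternatives changed the samples fitted, the minimum mean, the pseudocount, the fold minimum, the moderation and the scaling, and left out each sample in turn. Named genes were all members, always *Fgf5*, *Fgfrl1*, *Spry4*, *Dusp6*, *Etv4* and *Etv5*, the 3 called pathway genes with the smallest adjusted p-value per list, comparison and direction, the 3 genes most correlated with each member above a mean of 50, and tested genes within 500 kb of *Fgf4*. A gene that this rule selects is not reported here. The members and gene lists were chosen with earlier results of these data known.

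Depth per sample was estimated as 14305335 to 27061091 reads, with 3 reads worth 2.10 to 3.97 normalised counts. Replicates of a medium differed by 6.38 to 42.0 times the variance that sampling alone gives, so that no sample was counted as a copy of another. Samples of DM and NO with the same replicate number deviated together from their group means (correlations over tested genes 0.159, 0.167 and 0.296 for numbers 1, 2 and 3), and a fit with the number as a block was made. Correlations were -0.178, 0.0216 and -0.232 for DM with GS and -0.0462, 0.0503 and -0.106 for NO with GS.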

Additional observations from a re-analysis of the deposited data

How the results depend on the processing

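The replicate block changed no call of a member, and the adjusted p-values of the called members under it lay between 0.00215 and 0.0315. The numbers of called members were 3, 3 and 2 in DM vs GS, NO vs GS and NO vs DM, those of other pathway genes 8, 12 and 10, and those of all genes 763, 2127 and 1552. With a minimum log2 fold change of 2, they were 1, 1 and 1 for members, 4, 6 and 3 for pathway genes and 242, 926 and 660 for all genes. Without a minimum fold change, NO vs GS gave 19 called pathway genes (3640 of all genes) and NO vs DM gave 16 (2587). Without the mean-variance trend, 1 member and 6 pathway genes were called in NO vs DM (1133 of all genes), and with only the 6 samples compared 6 pathway genes were (912). Leaving out each sample in turn gave 0 to 4 members and 5 to 9 pathway genes for DM vs GS (509 to 962 of all genes), and 1 to 3 members and 5 to 14 pathway genes for NO vs DM (806 to 2512). The count of members in DM vs GS was 0 without GS replicate 3 or DM replicate 3 (limma, with 5 members at an unadjusted p-value under 0.05 in each, and 514 and 509 of all genes called), and 1 without GS replicate 1, GS replicate 2 or DM replicate 1.

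Signs changed only for values of members that were not called. In NO vs GS, the log2 fold change of *Fgf15* was 0.045 with a pseudocount of 5 and 0.098 with equal totals. Quantile normalisation gave 0.023 for *Fgf4* and -0.062 for *Fgf17* in NO vs GS, and -0.065 for *Fgfr3* in NO vs DM. Leaving out 1 sample gave ranges of -0.040 to 0.36 for *Fgfr3* in DM vs GS, -0.28 to 0.11 for *Fgf4*, -0.64 to 0.64 for *Fgf15* and -0.15 to 0.22 for *Fgfr1* in NO vs GS, and -0.53 to 0.40 for *Fgf10* in NO vs DM. The causes were not tested.

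Quantile normalisation moved the median log2 fold change of all genes in NO vs GS from -0.02 to -0.11, and the share of called genes that were higher from 86% to 67.5%. In NO vs DM that share moved from 79.3% to 65.1%. *Fgfr2* and *Fgfr3* rested on few reads per sample, which limits the precision of their fold changes. The same holds for *Fgf15*, with an estimated 17 to 22 reads in the GS samples and 6 to 74 in the NO samples. *Fgf8* also had few reads and was not tested.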
